A study of Mus musculus with 6 samples.

Results

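A set of 10 genes that handle phosphate, pyrophosphate and the mineral of bone matrix was followed in osteoblasts, the bone-forming cells, of the mandible (lower jaw) and the tibia (shin bone) of the mouse. The genes, Alpl, Phospho1, Smpd3, Enpp1, Ank, Slc20a1, Slc20a2, Phex, Fgf23 and Fam20c, were listed by name for their known roles, with earlier results of these data in view, as were the lists of related genes, and all 10 were among the 19679 gene symbols of the deposited table. There were 3 mandible and 3 tibia libraries. Both groups came from Col1a1*2,3-GFP transgenic mice at postnatal day 9, untreated as far as the labels say, in which a Col1a1 promoter fragment drives green fluorescent protein. GFP-positive cells were sorted after collagenase digestion. Each of 3 independent dissections pooled about 50 mice, and mandible and tibia libraries of the same number came from the same dissection. The p-values therefore reflect how far pools of animals differed, and say nothing of single mice.

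Bone mineral grows from calcium and phosphate, first inside matrix vesicles that bud from the osteoblast and then along collagen, and pyrophosphate blocks its growth. Tissue-nonspecific alkaline phosphatase (Alpl) destroys pyrophosphate and frees phosphate, whereas Enpp1 and Ank raise pyrophosphate outside the cell. Phosphate also enters the cell through sodium-coupled transporters, and bone cells control its blood level through the hormone FGF23. These roles are known from mice and from human disease and are given as background.

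Values are RPKM, reads scaled for transcript length and library size, which the authors computed for each RefSeq transcript and which were summed here per gene. Because of the length scaling, levels of different genes can be set side by side. The size of the smallest RPKM steps put the depth at 49.4 to 58.2 units of 1000000 reads in mandible libraries and at 49.2 to 52.1 in tibia libraries. All 10 osteoblast markers were detected in all 6 libraries, with Col1a1 (type I collagen) at 5566 to 17291 RPKM in the mandible and 7990 to 26205 RPKM in the tibia. Mandible libraries also held RNA of tooth cells. The odontoblast marker Dspp was at 52.5, 70.2 and 9.53 RPKM in mandible libraries 1, 2 and 3, against 0.0964, 0.135 and 0.235 RPKM in tibia libraries 1, 2 and 3, and of 6 odontoblast genes 3 were called higher in the mandible without the dissection block described below and 5 with it. The 3 called without it, Dspp, Barx1 and Lhx8, averaged 0.155, 0.00471 and 0.0572 RPKM in the tibia. They passed the filter described below only through the mandible. Dmp1, which is on that list too, was called in neither fit, and the part of odontoblasts in the bone differences below was not tested. Both libraries of dissection 3 stood apart. Red-cell genes (9 of 9 detected, Hbb-bt and Hbb-b2 with identical values) summed to 26565 RPKM in mandible library 3, against 2839 and 10017 in mandible libraries 1 and 2, and to 53882 RPKM in tibia library 3, against 7088 and 18024 in tibia libraries 1 and 2. White-cell genes (8 of 8 detected) summed to 6006 and 6067 RPKM in mandible and tibia library 3 and to between 635 and 1283 RPKM in the other 4 libraries. S100a8 was the most abundant of them, at 3140 and 3068 RPKM in mandible and tibia library 3. Not all 8 rose: Csf1r was at 24.4 RPKM in mandible library 3, against 29.7 and 22.8 in mandible libraries 1 and 2. In tibia library 3 Csf1r was at 23.2 RPKM, against 30.8 and 21.6 in tibia libraries 1 and 2. In such sorted bulk samples, fewer cells of a type and less RNA per cell cannot be told apart.

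No gene of the set differed between the bones past the threshold, an adjusted p of 0.05 in limma's moderated test with Benjamini-Hochberg adjustment over 12752 genes. Of the 9 members above the filter (a mean of at least 0.5 RPKM), 0 were called, where 0.972% of all genes were (0.87% with the mandible higher and 0.102% with it lower). An unadjusted p under 0.05 was reached by 0 of the 9. With the dissection as a block in the same limma model 0 were called again, where 6.49% of all genes were (4.44% higher and 2.05% lower), and 4 had an unadjusted p under 0.05, namely Phospho1, Phex, Ank and Fam20c. The unadjusted share over all genes was 8.99% without the block and 26.5% with it. By the mean log2 value 7 of the 10 were higher in the mandible, and for none of the 10 did the 3 mandible values lie clear of the 3 tibia values, as they did for 15.6% of all genes. The median log2 fold change over all genes was 0.12, the level against which the values below are to be read.

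**Figure D1:**
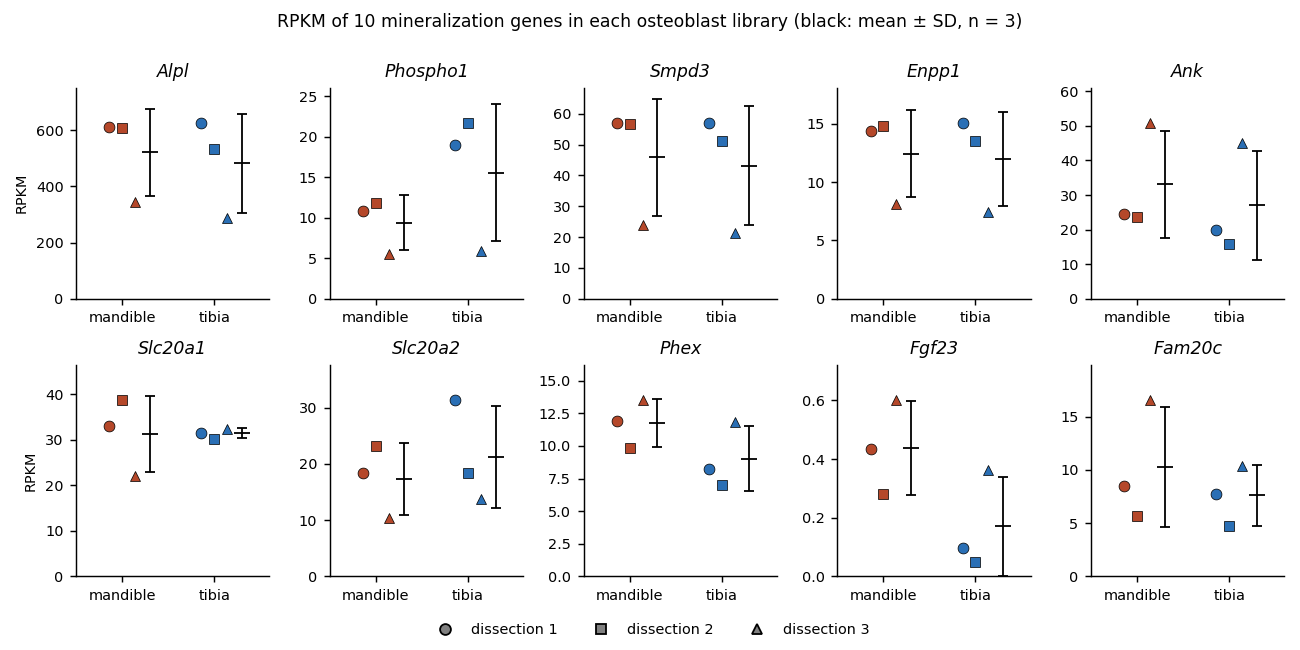
RPKM (y axis, from 0) of each of the 10 genes in the 3 mandible (left, red) and 3 tibia (right, blue) libraries, with a marker shape per dissection and the mean ± SD in black (n = 3). The triangles of dissection 3 lie lowest at both bones for Alpl, Phospho1, Smpd3, Enpp1 and Slc20a2 and highest at both for Ank, Phex, Fgf23 and Fam20c.

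Alpl, the phosphatase that clears pyrophosphate, was by far the most abundant member. It was at 613, 606 and 343 RPKM in mandible libraries 1, 2 and 3, against 627, 534 and 286 RPKM in tibia libraries 1, 2 and 3. Between 97.99% and 99.4% of the tested genes lay below it in each library, and it held 65.8% to 77.4% of the RPKM of the set. The bones overlapped, and within each bone the library of dissection 3 was low. The log2 fold change, mandible minus tibia on log2(RPKM + 0.5), was 0.14 (SE 0.41, limma adjusted p = 0.976), with a 95% interval of -0.84 to 1.11. With the dissection as a block the interval narrowed to -0.11 to 0.38 (adjusted p = 0.434). In linear terms the upper end of the blocked interval is 1.30-fold higher in the mandible.

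The table listed 2 RefSeq transcripts of Alpl. NM_007431 carried 81.2% to 86.2% of the gene's RPKM in mandible libraries and 83.8% to 84.1% in tibia libraries, and NM_001287172 carried the rest. Neither differed between the bones in the limma fit over 16779 transcripts, of which 0.673% were called (0.13 and 0.14, adjusted p = 0.994 for each). RefSeq (GRCm38.p6) gives Alpl, at chromosome 4, 137741731 to 137796384, a pair of starts. Both are shown because the gene's transcripts could begin at either, and GENCODE pairs both RefSeq transcripts with the same model, so none of the sources used here says which start each uses. Windows run from 250 bases before to 50 after the start, on the minus strand, with capitals marking matches to GGGCGG or TATAAA on either strand. A match is a description of the letters, not a binding site.
Alpl upstream start, chr4:137796335-137796634, minus strand: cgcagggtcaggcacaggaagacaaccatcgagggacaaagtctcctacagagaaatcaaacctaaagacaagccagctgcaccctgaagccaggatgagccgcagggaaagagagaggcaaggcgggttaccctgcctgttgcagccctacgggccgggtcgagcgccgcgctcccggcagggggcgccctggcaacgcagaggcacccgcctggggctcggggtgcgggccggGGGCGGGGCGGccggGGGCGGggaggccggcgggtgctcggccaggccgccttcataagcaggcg
Alpl downstream start, chr4:137766426-137766725, minus strand: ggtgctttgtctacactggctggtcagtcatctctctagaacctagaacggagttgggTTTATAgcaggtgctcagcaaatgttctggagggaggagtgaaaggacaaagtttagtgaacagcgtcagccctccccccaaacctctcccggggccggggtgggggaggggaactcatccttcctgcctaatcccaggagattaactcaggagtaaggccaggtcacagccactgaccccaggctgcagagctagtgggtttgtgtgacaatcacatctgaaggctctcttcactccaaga
The upstream window was 70.0% GC and held GGGCGG 3 times, 2 of them overlapping, and the downstream window was 54.3% GC and held TATAAA once, as its other strand, and no GGGCGG. Over all 32851 RefSeq windows of this length the median was 52.7% GC, 35.7% held GGGCGG and 13.6% held TATAAA.

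Enpp1, which makes pyrophosphate from ATP outside the cell and so has the opposite role to Alpl, followed Alpl closely. It was at 14.4, 14.8 and 8.15 RPKM in mandible libraries 1, 2 and 3, against 15.1, 13.5 and 7.46 RPKM in tibia libraries 1, 2 and 3. Here too the bones overlapped and dissection 3 was low at both. The log2 fold change was 0.06 (SE 0.35, limma adjusted p = 0.987; 95% interval -0.76 to 0.88, and -0.21 to 0.33 with the block).

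Set against each other within a library, a comparison that needs no scaling between libraries, Alpl stood at 42.7, 40.8 and 42.0 times the RPKM of Enpp1 in mandible libraries 1, 2 and 3, and at 41.5, 39.6 and 38.4 times in tibia libraries 1, 2 and 3. The highest of these ratios was 1.11 times the lowest. Among 12701 genes above 0 in every library, Enpp1 was the 1 gene (0.00787%) whose highest-over-lowest ratio to Alpl was no larger than this value of its own, and the median gene's ratio to Alpl varied 3.07-fold. This rank was looked up after the ratio had been seen and has no test. By the mean distance between centred log2 profiles Plxnb2 was nearer to Alpl than Enpp1 was (0.0488 against 0.0510). Seen from Enpp1, the 2 nearest genes (0.0406 and 0.0462) were outside the set and nearer than Alpl. The rank of Enpp1 also rests on the sum over transcripts. Between the leading transcripts, NM_007431 and NM_008813, the ratio was 49.3, 49.5 and 73.0 in the mandible against 62.4, 55.4 and 68.5 in the tibia.

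**Figure D2:**
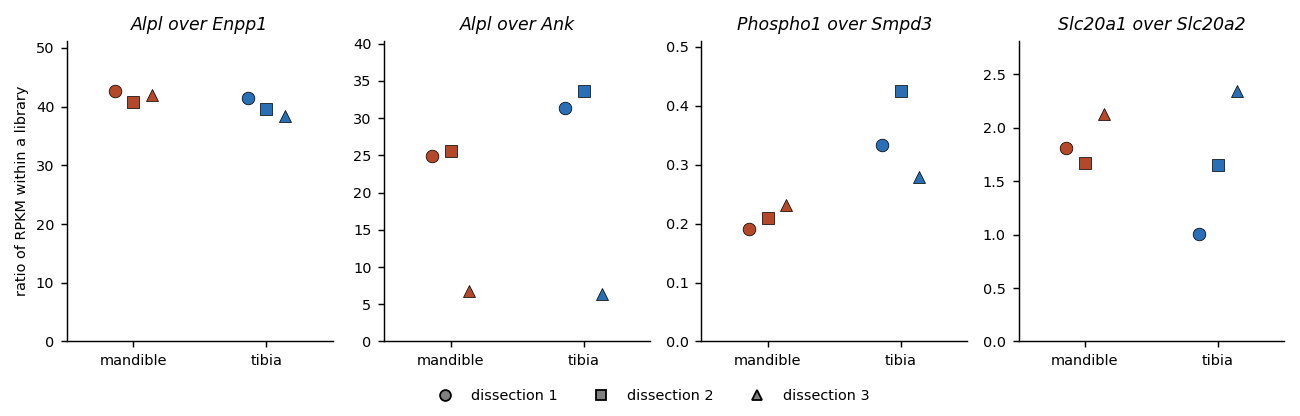
Ratio of RPKM within each library (y axis, from 0) for 4 pairs of genes, mandible libraries on the left in red and tibia libraries on the right in blue, with a marker shape per dissection. Alpl over Enpp1 stays between 38.4 and 42.7 in all 6 libraries, and Phospho1 over Smpd3 is at or below 0.231 in the mandible and at or above 0.278 in the tibia.

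Of the 3 Enpp1 transcripts, NM_008813 led with 8.14 ± 3.54 RPKM in the mandible and 6.68 ± 2.74 RPKM in the tibia (SD, n = 3 each). Its share of the gene was 70.3%, 69.2% and 49.6% in mandible libraries 1, 2 and 3, against 55.8%, 60.0% and 47.1% in tibia libraries 1, 2 and 3. The share was thus higher in the mandible in each dissection and low in dissection 3 at both bones. NM_001308327 held 15.3% to 16.5% of the gene in the mandible and 20.0% to 23.1% in the tibia. The share of NM_001308329 was high in dissection 3, at 14.4%, 15.1% and 33.8% in mandible libraries 1, 2 and 3, against 21.1%, 17.2% and 33.0% in tibia libraries 1, 2 and 3. By RPKM none of the 3 transcripts passed the transcript-level limma test (NM_008813 at 0.25, adjusted p = 0.988, or 0.316 with the block; NM_001308327 at -0.34, adjusted p = 0.956, or 0.314 with the block; NM_001308329 at -0.14, adjusted p = 0.981, or 0.702 with the block, which called 3.09% of transcripts). Shares between overlapping transcripts are estimates of the counting software. The single RefSeq start of Enpp1, at chromosome 10, 24637914 to 24712159, is printed for comparison with those of Alpl, with capitals for GGGCGG and for ACCACA, the core bound by Runx factors, which 16.8% of all windows held on either strand.
Enpp1 start, chr10:24712110-24712409, minus strand: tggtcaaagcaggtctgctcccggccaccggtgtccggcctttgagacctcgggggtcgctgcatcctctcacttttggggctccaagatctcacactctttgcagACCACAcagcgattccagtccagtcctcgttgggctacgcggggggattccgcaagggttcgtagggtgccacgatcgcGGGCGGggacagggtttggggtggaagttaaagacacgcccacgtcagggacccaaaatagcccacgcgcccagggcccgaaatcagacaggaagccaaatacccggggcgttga
It was 61.7% GC. GGGCGG occurs in it and in the upstream window of Alpl, and ACCACA occurs in neither Alpl window.

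Ank, a membrane protein through which pyrophosphate and ATP leave the cell, ran the other way between dissections. It was at 24.6, 23.7 and 50.9 RPKM in mandible libraries 1, 2 and 3, against 19.9, 15.9 and 45.1 RPKM in tibia libraries 1, 2 and 3. The mandible value was above the tibia value in each dissection, but the difference between dissections was larger, so the bones overlapped. Its log2 fold change was 0.34 (SE 0.47, limma adjusted p = 0.952; 0.133 with the block, interval 0.06 to 0.63). Alpl stood at 24.9, 25.6 and 6.73 times Ank in mandible libraries 1, 2 and 3 and at 31.4, 33.7 and 6.35 times in tibia libraries 1, 2 and 3. This ratio was low in dissection 3 at both bones. The 2 genes of the pyrophosphate-raising arm, Enpp1 and Ank, therefore did not run together over the libraries.

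Phospho1, the phosphatase that frees phosphate from phosphocholine inside matrix vesicles, had the largest log2 difference in size among the 9 tested members. It was at 10.9, 11.8 and 5.50 RPKM in mandible libraries 1, 2 and 3, against 18.996, 21.7 and 5.92 RPKM in tibia libraries 1, 2 and 3. The mandible was lower in each dissection, clearly in dissections 1 and 2 and hardly in dissection 3, where both bones were low. The log2 fold change was -0.57 (SE 0.53, limma adjusted p = 0.900; 95% interval -1.83 to 0.68), and with the block the adjusted p was 0.102 (interval -0.99 to -0.16). Without both libraries of dissection 3 it was -0.81 and the limma test passed (adjusted p = 0.0209, 2 libraries per bone), the only alternative in which a member was called. In that setting 5.6% of all genes passed. Reads behind these values were about 545 to 1318 in mandible libraries and 586 to 2162 in tibia libraries, so counting error was small beside the spread. The direction was not particular to Phospho1. Of the 10 osteoblast genes 2 were called lower with the block and 1 higher (Ibsp). The lower ones were Col1a1 (-0.55, limma adjusted p = 0.952, or 0.0310 with the block) and Col1a2 (-0.51, adjusted p = 0.951, or 0.0376 with the block).

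Smpd3, the sphingomyelinase that releases phosphocholine from sphingomyelin and whose loss gives fragile, undermineralized bone in the mouse, was at 57.0, 56.7 and 23.8 RPKM in mandible libraries 1, 2 and 3. In tibia libraries 1, 2 and 3 it was at 57.1, 51.2 and 21.3 RPKM. The bones had nearly the same values within each dissection, and dissection 3 was low at both (log2 fold change 0.10, SE 0.49, limma adjusted p = 0.985; interval -0.14 to 0.34 with the block). Phospho1 stood at 0.191, 0.209 and 0.231 times Smpd3 in mandible libraries 1, 2 and 3, against 0.333, 0.425 and 0.278 times in tibia libraries 1, 2 and 3. For this pair the bones did not overlap. Of 12751 genes, 146 (1.15%) had every mandible ratio to Smpd3 below every tibia ratio, and 5.76% did not overlap in either direction. The 2 enzymes lie in sequence in the release of phosphate, and the log2 ratio, mandible minus tibia, was -0.80, -1.02 and -0.27 in dissections 1, 2 and 3. No test was run on this ratio. The Phospho1 window, at the gene's start on chromosome 11 (95824500 to 95832140), was 77.0% GC with GGGCGG found 3 times, in capitals as its other strand; it is shown because of that log2 difference.
Phospho1 start, chr11:95824250-95824549, plus strand: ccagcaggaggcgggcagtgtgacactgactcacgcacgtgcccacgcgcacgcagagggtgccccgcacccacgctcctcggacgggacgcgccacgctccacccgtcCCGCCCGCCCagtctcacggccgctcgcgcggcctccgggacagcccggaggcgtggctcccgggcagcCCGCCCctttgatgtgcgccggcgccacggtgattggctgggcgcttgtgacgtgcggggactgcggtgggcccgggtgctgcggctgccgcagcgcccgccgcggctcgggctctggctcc

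**Figure D3:**
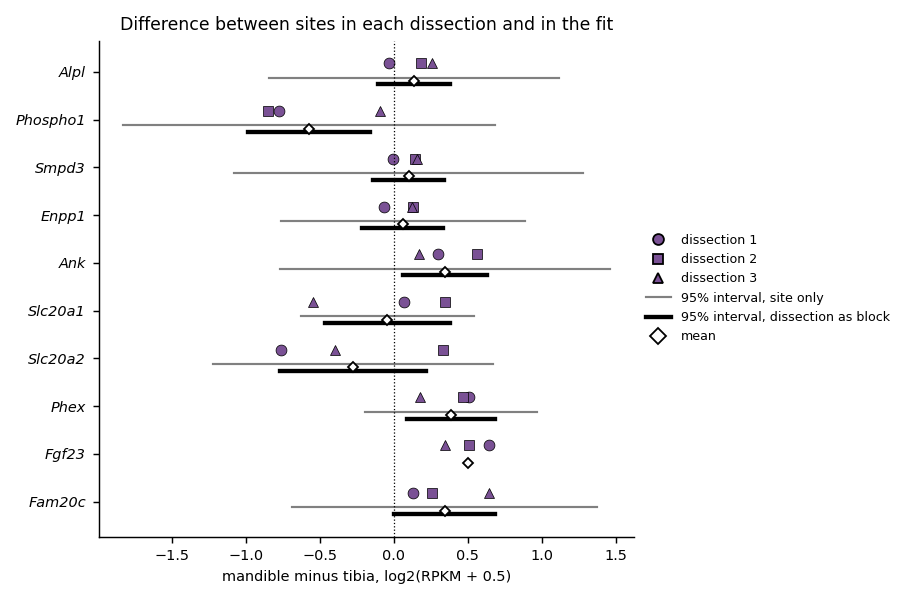
Mandible minus tibia on the log2(RPKM + 0.5) scale for each gene: the 3 dissections (markers), their mean (diamond) and the 95% intervals of the limma fits without (grey) and with (black) the dissection as a block, Fgf23 having no interval because it was under the filter. Phospho1 lies below 0 and Ank, Phex, Fgf23 and Fam20c above 0 in all 3 dissections.

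The sodium-phosphate transporters Slc20a1 (PiT-1) and Slc20a2 (PiT-2), paralogs that carry phosphate into the cell, differed in level and in steadiness. Slc20a1 was at 33.1, 38.7 and 22.1 RPKM in mandible libraries 1, 2 and 3, against 31.6, 30.3 and 32.5 RPKM in tibia libraries 1, 2 and 3. Tibia libraries were nearly level (SD 1.08 RPKM), and mandible library 3 was the low one (SD 8.46 RPKM over the mandible). The log2 fold change was -0.04 (SE 0.25, limma adjusted p = 0.987, or 0.896 with the block; interval -0.63 to 0.54, or -0.47 to 0.38 with the block), and it was 0.21 without both libraries of dissection 3. NM_015747 held 97.6% to 98.4% of its RPKM in all 6 libraries. Slc20a2 was at 18.3, 23.2 and 10.4 RPKM in mandible libraries 1, 2 and 3, against 31.3, 18.4 and 13.8 RPKM in tibia libraries 1, 2 and 3. Tibia library 1 was its high value, and the sign of the difference changed between dissections (log2 fold change -0.28, SE 0.40, limma adjusted p = 0.953, or 0.438 with the block). Slc20a1 was above Slc20a2 in all 6 libraries, at 1.67 to 2.13 times its RPKM in the mandible and 1.01 to 2.35 times in the tibia, but with its leading transcript alone it was at 0.988 times in tibia library 1.

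Phex is a membrane endopeptidase of osteoblasts and osteocytes whose loss raises FGF23 and causes X-linked phosphate wasting. Like Phospho1, it kept the sign of its log2 fold change over the 19 alternatives described below. It was at 11.9, 9.87 and 13.5 RPKM in mandible libraries 1, 2 and 3, against 8.23, 7.01 and 11.9 RPKM in tibia libraries 1, 2 and 3. The mandible was higher in each dissection, by 0.51, 0.47 and 0.18 on the log2 scale. The log2 fold change of 0.38 (SE 0.24) did not pass in limma (adjusted p = 0.787; 0.117 with the block, interval 0.09 to 0.68). Its window was the least GC-rich of the set at 38.7%, with 7.91% of all windows below it, and it held TAATTG, a core motif of homeodomain factors, 2 times, as 8.00% of all windows did at least once. It is printed as the contrast to the GC-rich windows above, with TAATTG in capitals (gene at chromosome X, 157162075 to 157415286).
Phex start, chrX:157415237-157415536, minus strand: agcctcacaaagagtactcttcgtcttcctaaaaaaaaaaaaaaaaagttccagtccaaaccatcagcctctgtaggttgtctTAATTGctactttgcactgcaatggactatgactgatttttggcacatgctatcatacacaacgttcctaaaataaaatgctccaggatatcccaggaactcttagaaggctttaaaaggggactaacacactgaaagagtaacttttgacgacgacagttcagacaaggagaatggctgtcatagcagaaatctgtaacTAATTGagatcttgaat

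Fgf23, the bone hormone that lowers phosphate uptake in the kidney, was scarcely detected. It was at 0.434, 0.280 and 0.601 RPKM in mandible libraries 1, 2 and 3, against 0.0979, 0.0499 and 0.364 RPKM in tibia libraries 1, 2 and 3. At the GENCODE length of its transcript this is about 39, 30 and 56 reads in the mandible against 9, 5 and 34 in the tibia, so counting error is part of each value. The mandible was higher in each dissection, while tibia library 3 lay above mandible library 2. The mean difference on the log2(RPKM + 0.5) scale was 0.50, a scale that understates the change of so low a gene, and the ratio of mean RPKM was 2.57. That ratio was lowered by tibia library 3. The ratio was 5.93 without that library and 4.83 without both libraries of dissection 3, and 1.90 to 3.03 without any other single library. In an exact permutation test over libraries, two-sided, p was 0.2, where 0.1 is the smallest that 3 against 3 allows. The permutation took no account of the dissections that libraries share.

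Fam20c, the kinase that phosphorylates secreted proteins, FGF23 and the mineral-binding matrix phosphoproteins among them, was at 8.51, 5.70 and 16.5 RPKM in mandible libraries 1, 2 and 3. It was at 7.73, 4.70 and 10.4 RPKM in tibia libraries 1, 2 and 3. The mandible was higher in each dissection and library 3 was high at both bones. The log2 fold change was 0.34 (SE 0.43, limma adjusted p = 0.949; 0.186 with the block, interval 0.00 to 0.69). In the same direction in all 3 dissections were 5 of the 10 genes, 4 higher (Ank, Phex, Fgf23 and Fam20c) and 1 lower (Phospho1). Over all tested genes this held for 50.3%, with 36.8% higher and 13.4% lower, so the share in the set was near that of all genes.

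Ranked by mean RPKM over the 6 libraries the order was Alpl (501 ± 149, SD, n = 6), Smpd3 (44.5 ± 17.2), Slc20a1 (31.4 ± 5.39), Ank (30.0 ± 14.4), Slc20a2 (19.2 ± 7.36), Phospho1 (12.5 ± 6.68), Enpp1 (12.2 ± 3.48), Phex (10.4 ± 2.47), Fam20c (8.93 ± 4.24) and Fgf23 (0.304 ± 0.208). Alpl lay clear of Smpd3, and Fam20c lay clear of Fgf23. Every other neighbouring pair overlapped. Phospho1 was above Enpp1 in only 2 of 6 libraries, both from the tibia, although its mean was higher.

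Between dissections the set split by gene, and it did so at both bones. In the limma model with bone and dissection, the dissection term passed for 7 of the 9 tested members, where 34.4% of all genes passed: Smpd3 (adjusted p = 0.00138), Ank (0.00266), Alpl (0.00362), Phospho1 (0.00596), Fam20c (0.00639), Enpp1 (0.00717) and Slc20a2 (0.0493). Phex (adjusted p = 0.0595) and Slc20a1 (0.420) did not pass. This test was added after the values had been seen. Relative to the mean of dissections 1 and 2, dissection 3 was lower, with log2 differences of -1.24 in the mandible and -1.32 in the tibia for Smpd3, -0.98 and -1.70 for Phospho1, and -0.83 and -1.01 for Alpl. For Enpp1 the values were -0.80 and -0.89, and for Slc20a2 -0.96 and -0.77. It was higher for Ank by 1.06 in the mandible and 1.32 in the tibia, for Fam20c by 1.19 and 0.74, for Phex by 0.30 and 0.61 and for Fgf23 by 0.37 and 0.59. Slc20a1 gave -0.68 for the mandible and 0.07 for the tibia, and its tibia value turned to -0.13 after quantile normalization and -0.09 after median-of-ratios scaling. For the other 8 tested members both other scalings kept the direction.

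**Figure D4:**
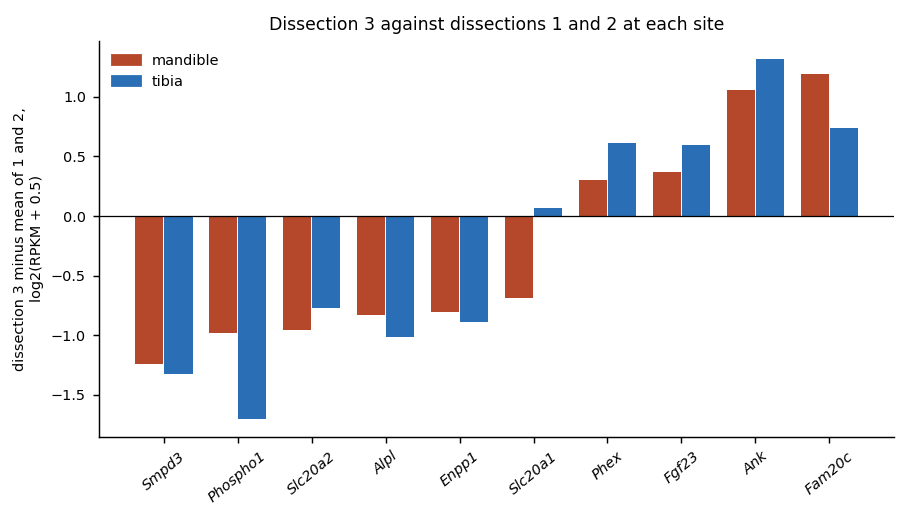
Dissection 3 minus the mean of dissections 1 and 2 on the log2(RPKM + 0.5) scale (y axis) for each gene, in the mandible (red, left bar) and the tibia (blue, right bar). The vesicle enzymes Smpd3, Phospho1 and Alpl, with Enpp1 and Slc20a2, lie below 0 at both bones, and Phex, Fgf23, Ank and Fam20c lie above 0 at both.

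In 9 of the 10 genes the library of dissection 3 lay outside the other 2 on the same side at both bones, as in 67.6% of all tested genes, so dissection 3 differed widely and not in this set alone. With dissection 3 also moved the red-cell and white-cell sums given above, and Col1a1, at 5566 RPKM in mandible library 3 against 17291 and 17057 in mandible libraries 1 and 2, and at 7990 RPKM in tibia library 3 against 26205 and 24442 in tibia libraries 1 and 2. Osteoblast genes did not move together. Col1a2 and Sp7 were low in dissection 3 with Col1a1, Bglap, Spp1 and Ifitm5 were high at both bones, and Runx2 was at 13.8 RPKM in mandible library 3 against 15.0 and 14.5 in mandible libraries 1 and 2. The sum of the 10 osteoblast genes was 72560 RPKM in mandible library 3 against 65076 and 64529 in mandible libraries 1 and 2, and 77007 RPKM in tibia library 3 against 71853 and 70474 in tibia libraries 1 and 2. Osteocyte genes did not move as 1 block: Mepe was at 659 RPKM in mandible library 3 against 204 and 160 in libraries 1 and 2, while Dmp1 was at 615 against 1110 and 804. Tibia library 3 had Mepe at 379 RPKM against 144 and 81.2 in tibia libraries 1 and 2, and Dmp1 at 377 against 879 and 646. The part of cell mixture, RNA quality or library preparation in this split was not tested.

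Around the set, 8 lists of related genes held 105 genes, of which 104 were in the table and 89 above the filter. In the limma fit 1 of these 89 was called (1.12%, against 0.972% of all genes), and with the block 11 were, 10 higher and 1 lower in the mandible (12.4%, against 6.49%). The 1 called without the block was Akp3, an alkaline phosphatase of the intestinal type. It was at 1.25, 1.19 and 0.575 RPKM in mandible libraries 1, 2 and 3, and was listed at 0, 0 and 0.0115 RPKM in tibia libraries 1, 2 and 3 (adjusted p = 0.0385; 0.0123 with the block). It passed the filter only through the mandible, and its relatives Alpi and Alppl2, with which it could share reads, were at most at 0.0248 RPKM. The call was lost when any 1 library other than mandible library 3 was left out, and its adjusted p ran from 0.00426 to 0.673 over the alternatives. Mandible libraries also held ameloblast genes, of which 7 of 7 were detected. Their sum was between 513 and 2183 RPKM, against 6.73 to 9.79 RPKM in the tibia. In the mandible most of it was Amelx (mean 1005 RPKM) and Ambn (306 RPKM). The list was not uniform: Klk4 was at 0.914, 0.501 and 0.765 RPKM in mandible libraries 1, 2 and 3. In tibia libraries 1, 2 and 3 Klk4 was at 1.41, 0.467 and 2.93 RPKM. Amtn did not exceed 0.135 RPKM in any library, and Odam did not exceed 0.574 RPKM. Epithelial genes (6 of 6 detected) summed to between 9.15 and 17.6 RPKM in the mandible, against 1.09 to 3.14 RPKM in the tibia. Their part in the Akp3 value was not tested.

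In the FGF23 and phosphate hormone list 9 of 13 genes were tested, and 2 rose with the block. Fgfr3, a receptor for fibroblast growth factors, was at 22.2, 21.03 and 15.9 RPKM in mandible libraries 1, 2 and 3, against 11.8, 6.88 and 9.45 RPKM in tibia libraries 1, 2 and 3, every mandible value above every tibia value (log2 fold change 1.05, limma adjusted p = 0.202; 0.0239 with the block). Mepe, a matrix phosphoprotein whose fragments inhibit mineral, was at 341 ± 276 RPKM in the mandible and 201 ± 157 RPKM in the tibia (0.76, adjusted p = 0.905; 0.0187 with the block). Fgfr1, the main receptor through which FGF23 is known to act, averaged 62.4 ± 7.27 RPKM in the mandible and 46.8 ± 4.56 RPKM in the tibia without passing (0.41, adjusted p = 0.650; 0.120 with the block). Kl, the co-receptor FGF23 needs, was at most at 0.0158 RPKM in the mandible and 0.0636 RPKM in the tibia. The list median was 0.37, against 0.12 over all genes. Without tibia library 3 it was 0.12 (0.16 over all genes), and without mandible library 3 it was 0.19 (0.08 over all genes). After quantile normalization the list median was 0.21, against -0.01 over all genes. Its most abundant gene, Dmp1, was at 843 ± 250 and 634 ± 251 RPKM (0.45, adjusted p = 0.898; 0.0684 with the block).

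Genes of extracellular nucleotides and pyrophosphate had 20 tested members with a median of 0.09, none called without the block and 2 higher and 1 lower with it. The median had no stable sign, at -0.03 with median-of-ratios scaling, -0.04 with quantile normalization and -0.04 to 0.17 leaving out 1 library. Over all genes the median was -0.0014 with median-of-ratios scaling and -0.010 with quantile normalization. Enpp2 (autotaxin), a relative of Enpp1 that makes lysophosphatidic acid, was at 29.1, 42.8 and 19.2 RPKM in mandible libraries 1, 2 and 3, against 11.0, 20.2 and 12.7 RPKM in tibia libraries 1, 2 and 3 (1.001, limma adjusted p = 0.455; 0.0216 with the block). The hemichannel gene Panx3 was at 71.1 ± 13.3 and 42.1 ± 3.89 RPKM in mandible and tibia, without overlap (0.74, adjusted p = 0.326; 0.0327 with the block). Chondrocyte genes, 11 of 11 detected, summed to between 109 and 270 RPKM in the mandible, against 26.2 to 100 RPKM in the tibia, with Col2a1 highest at 86.2 ± 32.5 RPKM against 12.6 ± 5.14 RPKM. Of 9 tested, 3 were called higher without the block and 5 with it. Among those 3, Col9a2 and Col9a3 averaged 0.367 and 0.219 RPKM in the tibia and passed the filter only through the mandible. The list of chondrocyte genes was not uniform: Acan was at 7.70 ± 5.13 and 7.36 ± 4.26 RPKM in mandible and tibia, Comp at 34.1 ± 39.8 and 36.0 ± 27.2 RPKM, and Col10a1, of hypertrophic cartilage, at 1.06 ± 0.513 and 4.01 ± 2.94 RPKM (-1.40, adjusted p = 0.439; 0.0550 with the block). Their part in the values of Fgfr3 and Panx3, both also made by cartilage cells, was not tested. Gja1, the gap junction protein connexin 43, was lower in the mandible at 399 ± 52.6 RPKM, against 590 ± 51.2 RPKM in the tibia (-0.57, adjusted p = 0.599; 0.0277 with the block). Also lower in the mandible with the block were 5 of 5 endothelial genes (median -1.17) and 9 of 9 red-cell genes (median -1.12) (lowest adjusted p without it 0.114, for Pecam1, and 0.302, for Slc4a1). Endothelial genes summed to between 25.3 and 42.5 RPKM in the mandible, against 55.1 to 96.0 RPKM in the tibia, and their part in the Gja1 value was not tested.

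In the list of choline and sphingomyelin supply, which feeds Smpd3 and Phospho1, 15 genes were tested, with a median of 0.14 and 1 call with the block. That gene was Chka, a choline kinase that makes phosphocholine, the substrate of Phospho1. It was at 13.6, 10.9 and 12.6 RPKM in mandible libraries 1, 2 and 3, against 6.51, 4.11 and 7.57 RPKM in tibia libraries 1, 2 and 3 (1.004, limma adjusted p = 0.224; 0.0163 with the block). In each dissection Chka was thus the higher and Phospho1 the lower in the mandible. Enpp6, a choline phosphodiesterase of the same route, was at 17.6 ± 0.560 RPKM in the mandible and 15.2 ± 1.56 RPKM in the tibia (0.20, adjusted p = 0.875; 0.322 with the block), and Sgms2, a sphingomyelin synthase, at 41.7 ± 7.23 and 42.3 ± 3.19 RPKM (-0.03, adjusted p = 0.988).

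**Figure D5:**
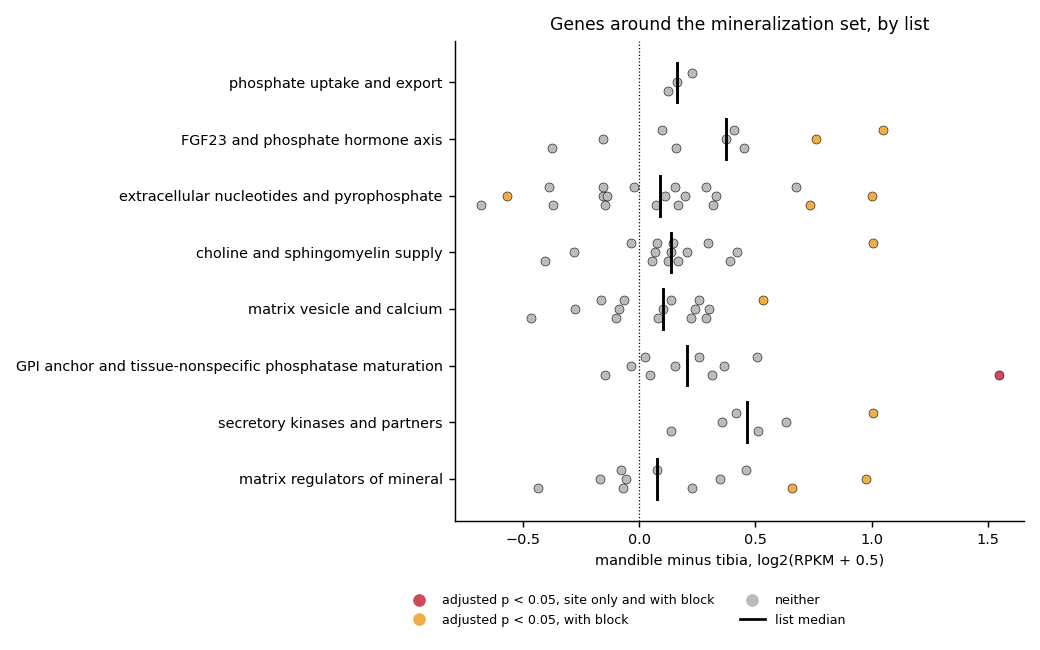
Log2 fold change, mandible minus tibia, of each tested gene of the 8 lists (points) with the list median (black bar); red marks the 1 gene called with and without the block (Akp3), orange the 10 others called with the block only. List medians lie between 0.08 and 0.46, against 0.12 over all genes.

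The other lists gave 1 to 2 calls with the block each, or none. Anxa5, an annexin of matrix vesicles, was at 460, 478 and 534 RPKM in mandible libraries 1, 2 and 3, against 302, 342 and 373 RPKM in tibia libraries 1, 2 and 3, without overlap (0.53, limma adjusted p = 0.607; 0.0250 with the block), and was the 1 call among 15 genes of matrix vesicles and calcium (median 0.10). Ibsp, the bone sialoprotein that nucleates mineral, was at 2442 ± 137 RPKM in the mandible and 1551 ± 167 RPKM in the tibia (0.66, adjusted p = 0.628; 0.0192 with the block). Postn (periostin) was at 329 ± 81.2 and 173 ± 75.0 RPKM (0.98, adjusted p = 0.505; 0.0437 with the block), and these were the 2 calls among 11 matrix regulators of mineral, whose median was 0.08. Among 6 secretory kinases Fam69c was called (1.01, adjusted p = 0.275; 0.0346 with the block), at 0.958 ± 0.166 and 0.251 ± 0.255 RPKM, having passed the filter only through the mandible, and Fam20a, the pseudokinase partner of Fam20c, was not, at 7.26 ± 1.36 and 5.68 ± 1.73 RPKM (0.36, adjusted p = 0.849). The median of the secretory kinases was 0.46, the highest of the 8 lists, against 0.12 over all genes. It ran from 0.34 to 0.51 leaving out 1 library, and no test was run on list medians. None of the 3 tested genes of phosphate uptake and export was called, the phosphate exporter Xpr1 standing at 2.27 ± 0.335 and 1.97 ± 0.151 RPKM. The kidney and gut phosphate transporters Slc34a1 and Slc34a2 did not exceed 0.0279 RPKM in any library.

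The most abundant genes of the lists included others that were not called in either model. Slc25a3, the mitochondrial phosphate carrier, was at 62.7 ± 9.40 RPKM in the mandible and 57.4 ± 7.70 RPKM in the tibia, and Slc37a4, the glucose-6-phosphate transporter, at 6.76 ± 0.678 and 5.80 ± 1.46 RPKM. Slc29a1, a nucleoside transporter, was at 134 ± 22.0 and 148 ± 23.7 RPKM, and Asah1, acid ceramidase, at 35.2 ± 2.17 and 32.1 ± 4.81 RPKM. Car3, a carbonic anhydrase, was at 575 ± 178 and 627 ± 72.0 RPKM, and the annexin Anxa2 at 559 ± 57.2 and 483 ± 90.5 RPKM. In each of these the spread over 3 libraries covered the difference. Pigt and Pgap2, which attach and remodel the lipid anchor that holds Alpl on the membrane, were at 13.2 ± 3.64 and 11.0 ± 2.25 RPKM in the mandible and at 10.3 ± 3.86 and 9.11 ± 1.72 RPKM in the tibia. Pkdcc, a secreted tyrosine kinase, was at 7.18 ± 1.55 and 4.45 ± 1.02 RPKM (0.63, limma adjusted p = 0.505; 0.105 with the block). Bglap (osteocalcin) was at 21570 ± 5742 and 22607 ± 14319 RPKM and Spp1 (osteopontin), an inhibitor of mineral, at 13485 ± 9257 and 8971 ± 3898 RPKM (0.46, adjusted p = 0.952; 0.116 with the block). Both were highest in dissection 3 at both bones, as Ank was.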

How the data were processed

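RNA was sequenced from 6 libraries, 3 of mandible and 3 of tibia osteoblasts. Per the labels' protocols, 2 to 8 ng of RNA entered SMART-Seq v4 and TruSeq preparation, so amplification adds error beyond counting. The authors deposited RPKM per RefSeq transcript (30198 transcripts): per the file headers from Partek 6.15.1207 on mm10, while the submitters' processing notes name CASAVA 1.8.2, TopHat2 2.1.0 and Partek 6.6. No source used here states the strand setting. RPKM does not correct for a few genes taking many reads. Depth was recovered from single-transcript genes with GENCODE lengths, where 61.7% to 64.7% of low values lay within 0.05 of a whole read. No count model was fitted, since values of multi-transcript genes are estimated shares.

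RPKM was summed per symbol, genes with a mean of at least 0.5 were kept, and log2(RPKM + 0.5) was tested with limma 3.58.1 (R 4.3.3; lmFit, eBayes with trend, two-sided, Benjamini-Hochberg over all genes). The same fit over transcripts used the same filter. Fits were tested on simulated data with large planted differences, a capped spread and no dissection effect. That check says nothing of differences as small as those of the members. The model without the block is the main one. It leaves out the shared dissection, so its SE takes in the spread between dissections (median SE over all genes 0.25, against 0.15 with the block). The labels tie same-numbered libraries to 1 dissection, and their deviations from the means of their bone correlated across genes at 0.59, 0.66 and 0.80 for pairs 1, 2 and 3. Crossed pairs of dissections 1 and 2 came close, at 0.55 (mandible 1 with tibia 2) and 0.52 (mandible 2 with tibia 1). Crossed pairs with dissection 3 ran from -0.64 to -0.71. These values thus set dissection 3 apart and hardly tell pairs 1 and 2 from each other. Members and lists were chosen with earlier results of these data known. Named were all 10 members and, per list, genes called in either fit (up to 4) and the most abundant genes. Others of clear role were chosen after their values were seen (Akp3's relatives, Fgfr1, Kl, Enpp6, Xpr1, Slc34a1, Slc34a2). From the cell type lists further genes were also named with their values in view, among them Acan, Comp, Col10a1, Csf1r, Klk4, Amtn and Odam. Promoter windows (RefSeq, GRCm38.p6, the build of mm10) existed for 8 members, and Slc20a2 and Smpd3 had none in the table used. Alternatives were other pseudocounts, filters, scalings and spread models, the dissection as a block, the leading transcript in place of the sum, and leaving out libraries. Figures used matplotlib 3.10.9 in Python 3.11.15.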

Additional observations from a re-analysis of the deposited data

How the results depend on the processing

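Over 19 alternatives, 0 of the 9 tested members passed, except that 1 (Phospho1) did without both libraries of dissection 3. Phospho1 stayed between -1.14 and -0.24 and Phex between 0.23 and 0.59 over all 19. Members near 0 changed sign. With quantile normalization, with or without the replicate block, Alpl was at -0.077, Enpp1 at -0.059 and Smpd3 at -0.045, and with median-of-ratios scaling at -0.000764, -0.071 and -0.035, while the median over all genes moved to -0.010 and -0.0014. Transcripts NM_001287172 and NM_007431 were at -0.033 and -0.044 with quantile normalization, blocked or not, and at -0.0017 and -0.011 with median-of-ratios scaling. NM_001308329 was at 0.048 without both libraries of dissection 1, and Slc20a1 and NM_015747 were at 0.21 and 0.21 without both of dissection 3. Leaving out 1 library at a time gave -0.20 to 0.41 for Alpl, -0.24 to 0.33 for Enpp1, -0.34 to 0.51 for Smpd3, -0.00903 to 0.78 for Ank, -0.052 to 0.68 for Fam20c, -0.21 to 0.19 for Slc20a1 and -0.53 to 0.044 for Slc20a2. It gave -0.19 to 0.53 for NM_001287172, -0.20 to 0.39 for NM_007431, -0.12 to 0.66 for NM_008813 and -0.21 to 0.19 for NM_015747. The ratio of Alpl to Enpp1, mandible minus tibia, moved to -0.14 from leading transcripts only, against 0.07. Of 152 medians of lists under alternatives, 33 moved beyond their spread, 10 of them in the nucleotide list, 8 in the matrix regulators (-0.06 to 0.19 leaving out 1 library), 7 in the vesicle list (-0.04 to 0.25), 5 in the choline list, 2 in the FGF23 list and 1 in phosphate uptake.

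All genes called numbered 124, 828 with the replicate block, 784 with block and quantile normalization, 6, 0 and 714 without both libraries of dissection 1, 2 and 3, and 37 to 151 leaving out 1 library. Genes of the 8 lists called numbered 1, then 11 with the replicate block, 9 with block and quantile normalization and 6 without dissection 3. They numbered 0 without dissection 1 or 2, with median-of-ratios scaling, quantile normalization, pseudocount 1, a minimum of 1 RPKM or no filter, and 0 to 1 leaving out 1 library. The block changed no call of a member. The 3 pools per bone and the use of RPKM in place of counts limit the precision, and the cause of the spread between dissections was not tested.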

Other observations

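Among 6098 genes with a mean of at least 5 RPKM, profiles over the 6 libraries were compared by the mean absolute difference of log2 values centred on each gene's mean. Nearest to Alpl were Plxnb2, a plexin receptor (0.0488), and Enpp1 (0.0510). Nearest to Smpd3 were the cargo receptors Lman2 (0.0361) and Surf4 (0.0610), which carry proteins between endoplasmic reticulum and Golgi. Lman2 was at 24.3, 24.1 and 10.8 RPKM in mandible libraries 1, 2 and 3, against 23.8, 22.2 and 9.22 RPKM in tibia libraries 1, 2 and 3. Slc20a1 was nearest to the transcription factor Zeb1 (0.0411) and to Samd4b (0.0532), and Ank to Ddit4l (0.0665) and Arglu1 (0.0676). These are the smallest of many differences over 6 libraries that share dissections, so they describe the libraries.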
